A study of Mus musculus with 13 samples.

Results

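The Vegfa region on mouse chromosome 17 held a dense distal cluster of Sox9 peaks far downstream of the gene and a small group of Sox9 peaks at the gene's start. All 41 peaks whose centres lay between 45880000 and 46220000 were taken, 27 from rib chondrocytes and 14 from nasal septum chondrocytes, of 27656 rib and 17440 nasal peaks in all (positions are mm9, 1-based). The region was chosen by its density of rib Class II peaks, so its rib and Class II counts describe that choice and are not findings. Members were taken from the nasal list by position as well, but nasal peaks did not define the dense window behind the choice. The submitters divided the rib peaks into Class I and Class II, and 26 of the 27 rib peaks here were Class II. The labels do not say how the classes were drawn.

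The study mapped Sox9 and chromatin marks by ChIP-seq in untreated wild-type ICR mice, and its title asks whether Sox9 works through distinct regulatory programmes. Rib chondrocytes came from postnatal day 1 and nasal septum chondrocytes from embryonic day 17.5, both released by enzyme digestion, so tissue and stage differ together. There was 1 Sox9 library per tissue, made with the same antibody, and the labels do not say how many animals each pooled. The lists hold positions without height or reads, so depth is unknown, there is no replicate check, and the labelled cell type could not be checked against marker levels. Intervals below are 95% exact (Clopper-Pearson) binomial intervals and cover counting error alone, since neighbouring peaks of 1 library are not independent.

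Vegfa encodes vascular endothelial growth factor A, a secreted protein that drives the growth of blood vessels by way of the receptors Flt1 and Kdr and the co-receptor Nrp1. Cartilage has no vessels until its chondrocytes enlarge late in their life. Those hypertrophic cells make much Vegfa, and vessels then invade as bone replaces the cartilage. Sox9 is the HMG-box transcription factor that chondrocytes need to form and to make their matrix, and in the mouse it has been described as holding Vegfa low before hypertrophy.

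Vegfa lies on the minus strand at about 46154000 to 46169300, so downstream means towards lower coordinates. Its start is known here to the nearest 100 bp, and distances are from peak centres to that start. By gene order in RefSeq on GRCm38.p6, a later build used for names alone, the next protein-coding gene downstream is 1600014C23Rik, with 7 long noncoding RNA genes in between. Beyond it come Mrpl14, for a mitochondrial ribosomal protein, Tmem63b, for an ion channel, Capn11, for a calpain protease, and Mymx, for a micropeptide of myoblast fusion. Upstream come Mrps18a, also for a mitochondrial ribosomal protein, Rsph9, for a part of the radial spoke of motile cilia, Mad2l1bp, for a regulator of the spindle checkpoint, Gtpbp2, for a GTP-binding protein, and Polh, for a DNA polymerase that copies past damage. Whether the distal cluster acts on Vegfa, on one of these neighbours or on none was not tested, as the lists link no peak of the region to a gene.

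The bases just before the Vegfa start are shown because Sox9 peaks stood on both sides of them in both tissues and none touched them. The 250 bases before the start come from RefSeq on GRCm38.p6, chr17:46032378-46032627, minus strand, printed 5′ to 3′ with GC boxes, the motif GGGCGG that Sp family factors bind, in capitals. That position is on another build and does not compare with the peak positions.

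Vegfa promoter: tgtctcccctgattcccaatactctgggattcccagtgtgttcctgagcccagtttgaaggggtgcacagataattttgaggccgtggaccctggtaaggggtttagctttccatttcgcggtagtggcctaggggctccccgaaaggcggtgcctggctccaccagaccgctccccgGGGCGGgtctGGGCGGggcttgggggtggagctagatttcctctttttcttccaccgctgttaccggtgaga

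This stretch was 59.2% G and C. On both strands together it held 2 GC boxes, which began 72 and 62 bases before the start and did not overlap each other. At least 1 GC box stood in 32.7% of the 32851 promoter stretches of that length in the table. The Sox core ACAAT had no match on either strand, against a match in 27.7% of the stretches, and TATAAA had none either, against 12.4%. Those are statements about letters in this window and not about binding. No peak of any list touched mm9 from 100 bp inside the gene to 350 bp before the start, a span that allows for the rounding of the start.

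At the Vegfa start the lists placed 3 rib peaks and 3 nasal peaks within 2 kb. The peak nearest to the start in the rib list, and the only Class I peak of the region, lay 0.4 kb inside the gene at 46168869 to 46168950. The nasal list had a peak of 197 bp over it, at 46168798 to 46168994, which covered all 82 bp of the rib peak, with centres 13.5 bp apart. Over the whole list, 68.8% of Class I peaks had a nasal partner, meaning a nasal peak with at least 1 bp in common. A single peak adds nothing to that share.

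Upstream of the start, 2 Class II peaks lay 0.9 and 1.1 kb away, at 46170199 to 46170273 and at 46170399 to 46170411. They were 75 bp and 13 bp wide and only 125 bp apart. Both fell on 1 nasal peak, at 46170222 to 46170441 and 1.0 kb upstream. Whether the 2 rib peaks are parts of 1 site cannot be told from positions alone. The nasal peak nearest to the start after the one inside the gene lay 0.5 kb upstream, at 46169805 to 46169818. It was 14 bp wide, had no rib partner, and stood 380 bp from the nearest rib peak.

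The peaks at the start ranged from the middle to the late part of their lists. The lists are not sorted by position, and their order is not explained by the labels, so place is given as a percentage of each list and read within it. The Class I peak stood at 85.9% of the rib list, and the Class II peaks upstream at 46.8% and 69.7%. The median places of all Class I and all Class II peaks were 61.4% and 45.7%. The nasal peak inside the gene stood at 81.7% of the nasal list, the 14 bp peak at 52.3% and the wide peak upstream at 92.8%. None of these 6 peaks stood in the first 10% of its list. By definition that part holds only 10% of a list, so its absence among 6 peaks says little. The remainder of the gene, about 15.3 kb long, held no peak of any list.

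**Figure D1:**
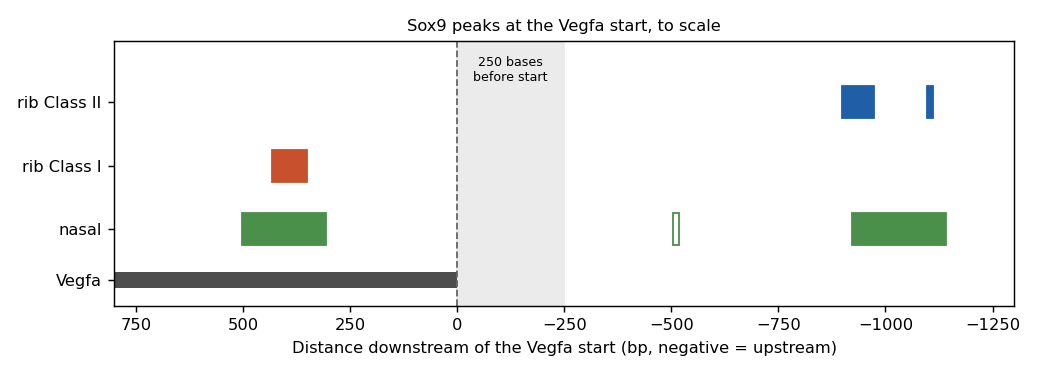
Sox9 peaks at the Vegfa start drawn to scale, with distance from the start in bp on the horizontal axis, downstream on the left, and a track each for rib Class II, rib Class I and nasal peaks. Filled bars share at least 1 bp with a peak of the other tissue, the open bar does not, and the shaded 250 bases before the start hold no peak.

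Most of the region's peaks lay far from the gene. More than 150 kb downstream of the start stood 20 of the 27 rib peaks and 11 of the 14 nasal peaks. The 100 kb window from 45900001 to 46000000, which led to the choice of the region, held 17 Class II peaks, no Class I peak and 8 nasal peaks. Its rib peaks lay 267.3 to 172.7 kb downstream of the start, and their widths ran between 58 and 309 bp with a median of 168 bp, against a median of 181 bp over all Class II peaks. Their median gap was 2.51 kb, against 23.4 kb between neighbouring peaks of the whole rib list. The dense spacing is what the rule looked for.

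The distal cluster fell into a crowded far part and a sparse near part. In the far part, 12 Class II peaks stood within 34.4 kb, with no gap over 10 kb, from 45901887 to 45936314. All 8 nasal peaks of the window lay in it, and 6 of the 12 rib peaks overlapped one of them, or 50.0% (21.1% to 78.9%), against 34.4% of the whole Class II list and a mean of 39.9% for all Class II peaks in the 10% steps of the list where these 12 stand. After a gap of 25.6 kb came a lone Class II peak 207.2 kb downstream, and after a further 25.9 kb a group of 4 at 181.1 to 172.7 kb. These 5 peaks lay past the last nasal peak of the window and so had no nasal partner by that division, which was made after the values were seen. The 50.0% rests on the same division, and over all 17 Class II peaks of the window the share was 35.3%. Joined by gaps of at most 10 kb, the group of 4 also takes in a shared Class II peak just outside the window, which makes 1 shared peak of 5 with 2 nasal peaks in its span. No difference between the far and the near part was tested.

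The far part began with a Class II peak of 309 bp at 45901887 to 45902195, which stood at 75.9% of the rib list, 7433 bp from the nearest nasal peak. Next to it, at 262.3 kb, a peak at 35.7% of the list stood 2522 bp from one. A run of 3 shared peaks followed at 259.6, 258.0 and 254.9 kb. Their places in the rib list were 18.6%, 75.8% and 25.7%, and those of their nasal partners in the nasal list were 62.4%, 37.1% and 43.5%. The partners' centres lay 20, 18.5 and 2.5 bp from the rib centres. The partner at 37.1% of the nasal list lay at 45911238 to 45911390. For the peak at 254.9 kb, at 45914299 to 45914413, the nasal peak covered its whole 115 bp.

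The peak at 247.0 kb, at 45922246 to 45922451, stood at 11.4% of the rib list. A nasal peak at 45922251 to 45922418 lay wholly inside it, and it stood at 27.2% of the nasal list. A second nasal peak beside it, at 45921952 to 45922077 and 28.6% of the nasal list, missed the rib peak by 168 bp. It was the only nasal peak of the window without a rib partner. Between this site and 237.3 kb stood 3 Class II peaks without a nasal partner, at 244.6, 241.3 and 240.0 kb and at 37.2%, 78.3% and 34.3% of the list.

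The near end of the crowded part held its earliest placed rib peaks. The Class II peak at 237.3 kb, at 45931941 to 45932114, stood at 11% of the rib list and shared 132 bp with a nasal peak at 62.4% of the nasal list. A peak of 58 bp at 235.1 kb, at 34.4% of the list, had no nasal partner. The last peak of the part, at 45936103 to 45936314 and 233.1 kb from the start, stood at 4.61% of the rib list. It met 2 nasal peaks that overlap each other by 41 bp, at 45935708 to 45936158 and at 45936118 to 45936352. These stood at 75.9% and 38.1% of the nasal list. The wider, of 451 bp, was broader than 98.4% of the nasal list.

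**Figure D2:**
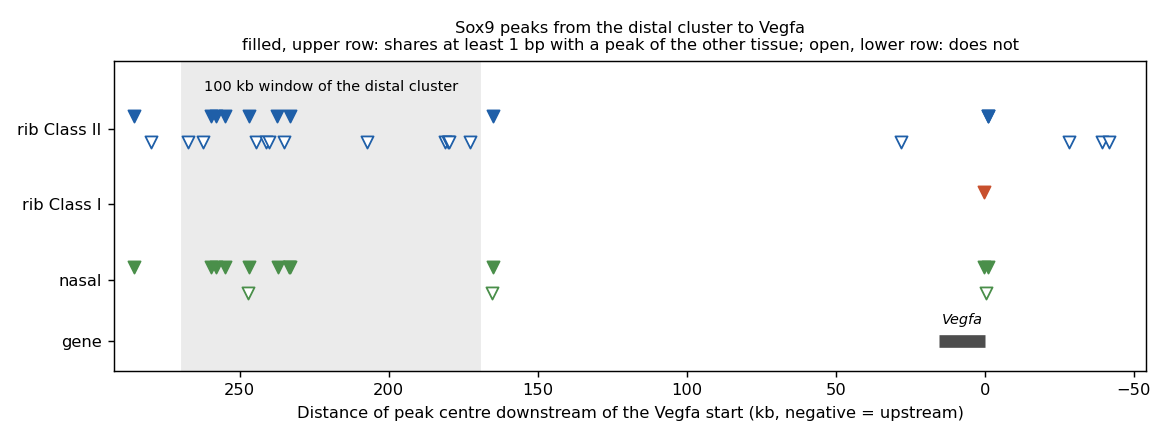
Centres of all 41 Sox9 peaks of the region by distance downstream of the Vegfa start in kb, with the gene on the right, a track each for rib Class II, rib Class I and nasal peaks, and the 100 kb window shaded. Filled markers in the upper row of a track share at least 1 bp with a peak of the other tissue and open markers do not. The 8 nasal peaks of the window lie in its far part, and the Class I peak stands at the gene.

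The earliest placed rib peak of the region had no nasal counterpart. It lay at 45996470 to 45996663, 172.7 kb downstream of the start, and stood 239th in the rib list, or at 0.864%. The nearest nasal peak was 7.14 kb away. Of the 227 Class II peaks listed up to that place, 94.3% had a nasal partner and 13 did not. Of all 2544 Class II peaks in the first 10% of the rib list, 480 had no nasal partner, and 12.1% were at least as far from a nasal peak as this one. The second such peak was the one at 39.4 kb upstream of the gene, at 46208638 to 46208858, which stood at 6.43% of the rib list. Its nearest nasal peak was 38.2 kb away. Of the 1665 Class II peaks listed up to its place, 12.5% had no nasal partner, and 6.88% of all Class II peaks in the first 10% of the list were at least as far from a nasal peak. Both peaks were singled out by their early place and by their lack of a nasal partner. The first 10% of the rib list held 4 Class II peaks of the region, and 2 of them were shared. Of all Class II peaks placed there, 81.1% were shared, and no difference was tested. Nasal reads below the submitters' threshold were not analysed here.

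A shared site stood just past the window, nearer to the gene. The Class II peak at 46004311 to 46004469, 164.9 kb downstream, stood at 9.47% of the rib list and followed the earliest placed peak by 7.65 kb. A nasal peak at 46004272 to 46004399, at 41.7% of the nasal list, shared 89 bp with it. A second nasal peak, at 46003804 to 46003980 and 48.0% of that list, lay 330 bp from the rib peak and had no partner. The nasal list thus had a pair of peaks here, as at 247 kb and 233.1 kb, where the rib list had 1. The reverse was seen upstream of the start, where 2 rib peaks fell on 1 nasal peak.

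From that site to the gene the region was almost empty. The rib list had no peak for 136.8 kb, and the nasal list none for 164.4 kb, up to the peak inside Vegfa. Gaps longer than these made up 13.4% of all gaps between neighbouring rib peaks and 16.9% of all gaps between neighbouring nasal peaks. The single rib peak that broke the stretch, 28 kb downstream of the start and thus past the end of the gene, was 27 bp wide and stood at 99.9% of the list.

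The remaining members lay at the edges. Beyond the window, on the side away from the gene, a Class II peak at 285.3 kb stood at 41.6% of the rib list and shared 135 bp with the earliest placed nasal peak of the region, at 45883884 to 45884069 and 17.8% of the nasal list. A Class II peak of 60 bp at 279.5 kb stood at 94.0% and was not shared. Upstream of Vegfa, Class II peaks at 28.3, 39.4 and 41.7 kb had no nasal partner, 0 of 3 (0.0% to 70.8%), where 34.4% of the whole Class II list had one. Just outside the chosen limits, the next rib and nasal peaks lay 290.9 and 290.8 kb downstream, only 1.6 and 1.5 kb past the limit, so that limit does not mark an end of the peaks. On the upstream side both lists had their next peak 72.4 kb from the start.

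Nasal overlap in the region was near that of the lists as a whole. Nasal peaks overlapped 10 of the 26 Class II peaks, or 38.5% (20.2% to 59.4%), against 34.4% of the whole Class II list. Of those 10, 2 were the narrow peaks upstream of the start that fell on the same nasal peak. Counting the Class I peak, nasal peaks overlapped 11 of 27 rib peaks, or 40.7% (22.4% to 61.2%), against 42.8% of the rib list. In the other direction, rib peaks overlapped 11 of the 14 nasal peaks, or 78.6% (49.2% to 95.3%), against 68.2% of the nasal list. That share is a description, as the region was chosen for its density of rib peaks. Within the 100 kb window the share was 6 of 17 Class II peaks, or 35.3% (14.2% to 61.7%). Each interval holds the value of its list, and the counts are too small to show a moderate difference.

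Shared Class II peaks stood earlier in the list by the median, in the region and over the whole Class II list. In the region, shared Class II peaks stood at a median of 22.1% of the rib list and those without a nasal partner at 37.2%, against 21.3% and 57.9% for all Class II peaks. Of the 17 Class II peaks in the first 50% of the rib list, 8 were shared, or 47.1% (23% to 72.2%), against 50.4% of all Class II peaks placed there. Of the 9 in the second 50%, 2 were shared, or 22.2% (2.81% to 60.0%), against 15.4%. When each of the 26 was given the share of all Class II peaks in its 10% of the list, the mean was 38.7%, next to the 38.5% observed. The region had 4 rib peaks and 0 nasal peaks in the first 10% of their lists. Places in lists of different length do not show a change between tissues.

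**Figure D3:**
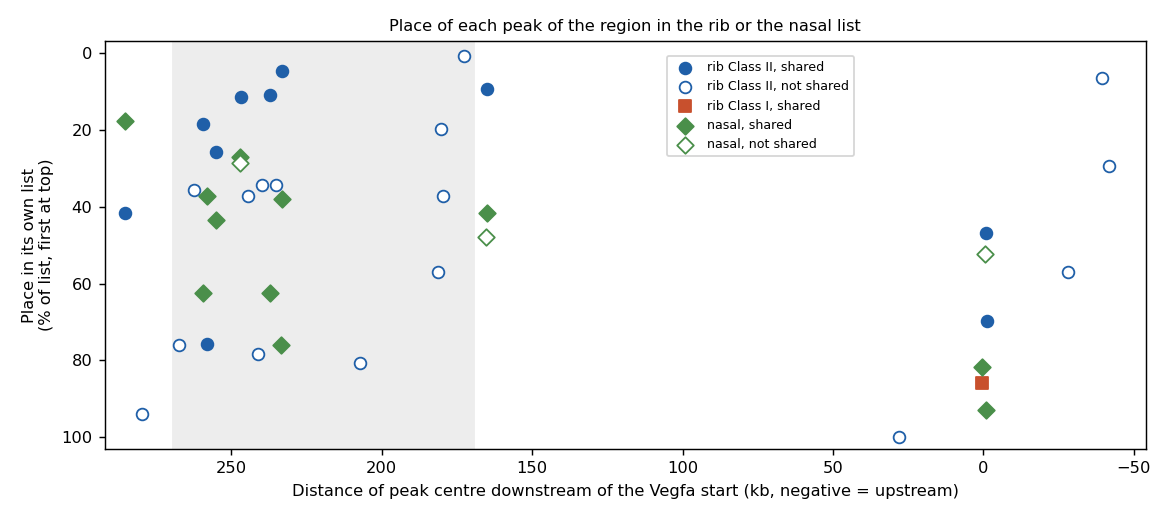
Place of each peak of the region in its own list, in percent with the first peak at the top, against distance downstream of the Vegfa start in kb, with circles for rib Class II, a square for rib Class I and diamonds for nasal peaks, filled where shared. The rib peak at 0.864% and the one at 6.43% are open, and the peaks at the gene lie between 46.8% and 92.8%.

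Shared sites coincided closely in position. The centres of the 11 shared rib peaks and their nearest nasal partner lay a median of 26.5 bp apart, with 8 within 50 bp. The largest offset was 95.5 bp, at the Class II peak 0.9 kb upstream of the start. Offsets of narrow peaks that overlap at all are bound to be small. Peaks under 30 bp numbered 2 of 27 in the rib list of the region and 1 of 14 in the nasal list, against 1.40% and 1.44% of the whole lists. Per the labels the chromatin was sheared to 100 to 600 bp, so these 3 peaks are shorter than the shortest fragments aimed at. The same holds for rib peaks of 58, 60, 75 and 82 bp. With them, all 3 rib peaks within 2 kb of the start were shorter, the Class I peak included. Over the whole rib list, 7.21% of peaks were narrower than the Class I peak of 82 bp, and the share under 100 bp was not counted.

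Set beside other windows of equal size, the nasal count of the region was high as well. Fixed windows of 340 kb held a median of 1 nasal peak, and 114 of 7541, or 1.51%, held at least 14. For Class II, 16 windows held at least 26. For Class I the single peak was at least matched in 36.1% of windows. The windows were laid at fixed positions, whereas the region's limits were set around the dense window and the gene, so they are not placed alike. As 68.2% of nasal peaks overlap a rib peak, the nasal count of a region picked for many rib peaks is not independent of that choice.

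The distal cluster was set beside other windows with many Class II peaks for its sharing with nasal cartilage. Fixed windows of 100 kb with at least 10 Class II peaks numbered 92, and the distal cluster had the fourth-highest count. The nasal share of their Class II peaks had a median of 40.0%, with the middle 50% of windows between 30.0% and 50.0%, and the distal cluster's 35.3% fell between those values. A higher share was found in 63 of the 92. The 3 windows with more Class II peaks than the cluster, with 27, 22 and 18, had shares of 44.4%, 40.9% and 38.9%, each above 35.3%. Its 8 nasal peaks compared with a median of 6, and 22 windows held more. It was one of 56 windows, or 60.9% of the 92, that held no Class I peak. These are descriptions of 1 rib and 1 nasal library, without a test.

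**Figure D4:**
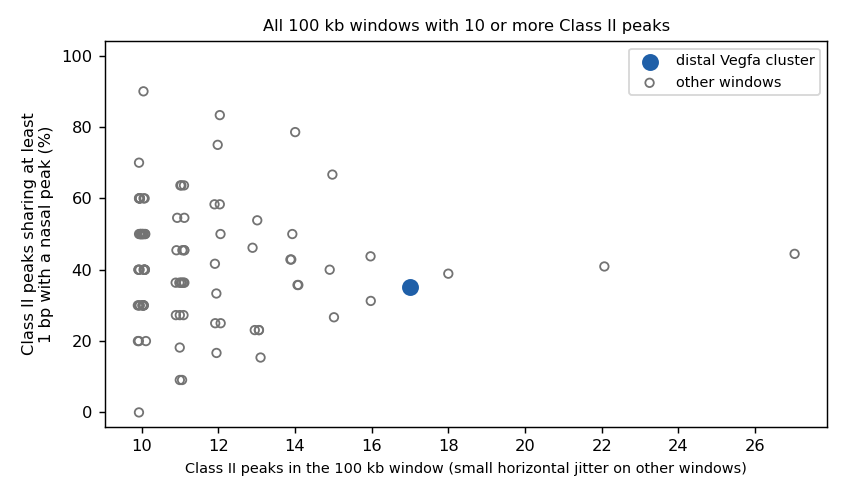
Share of Class II peaks overlapped by nasal peaks, in percent, against the number of Class II peaks, for all 92 windows of 100 kb with at least 10 of them. The distal Vegfa cluster, the large point, sits at 17 peaks and 35.3%, within the spread of the other windows.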

How the data were processed

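The authors deposited 4 Sox9 peak lists (rib, its Class I and Class II parts, and nasal) as chromosome, start and end on mm9, per the submitters' processing notes. They carry no score, and the aligner, peak caller, control and class definition are not named there or in the labels. The list names hold FDR with the number 1, whose unit is not stated. Of the 13 libraries, 11 rib and 2 nasal, values from the 2 Sox9 libraries were used, and the other 11, inputs and IgG control included, were left out, which leaves no control values beside the peaks.

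Starts were raised by 1 to be 1-based. Peaks belonged to the region by their centres, and the gene's limits were those of the selection rule. Sharing meant at least 1 bp. Chains joined rib peaks with gaps of at most 10 kb. The named peaks were every Class I peak, all peaks in the gene or within 10 kb of its start, the 5 earliest placed of each list, the ends of the cluster and nasal peaks without a partner, and other members are given by distance. The region, its members and the lists were chosen with earlier results of these data known. The planned values carry no test, as 1 library stands for each tissue. The overlap routine recovered 800 of 800 simulated overlaps, and its calls differed from bedtools 2.31.1 for 0 of 27656 rib and 0 of 17440 nasal peaks. Intervals came from scipy 1.17.1 and figures from matplotlib 3.10.9, under Python 3.11.15 with pandas 2.3.3.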

Additional observations from a re-analysis of the deposited data

How the results depend on the processing

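Of 17 recomputed values, 13 stayed within the interval of the reported share or within 1.5 times the reported count. The Class II share overlapped by nasal peaks lay between 29.4% and 38.5%, and requiring at least 50% of both peaks gave 30.8% against 24.2% over the list. The nasal share overlapped by rib peaks reached 100% with gaps of up to 1 kb, against 78.1% over the nasal list. The 3 unmatched nasal peaks lay within 0.38 kb of a rib peak. Rib peaks are dense here by the choice of the region, so this share is a description. The first 50% of the lists held 17 of the rib peaks and 8 of the nasal peaks, and nasal peaks merged within 1 kb numbered 9, as those settings leave fewer peaks. Chains of rib peaks numbered 8, 12 with gaps of at most 5 kb and 6 with at most 25 kb. Depth is unknown, and 1 library per tissue allows no replicate check.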
